A study of Mus musculus with 6 samples.

Results

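The p53 pathway and Gadd45 genes described here are 10 named genes of the 23361 in the authors' deposited table. They were taken by exact match of the gene symbol, and all 10 were found. The match itself used no values, but the genes were chosen with earlier results of these data known. They are Trp53, which encodes p53; Mdm2 and Ccng1; Gadd45a, Gadd45b and Gadd45g; Bax and Bcl2; Tert; and Lmnb1. The authors tested 9 of them and left Tert untested.

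The cells came from hindlimb skeletal muscle of mice 4 months old, and were sorted for the surface proteoglycan Sdc4 as primary satellite cells, the stem cells of muscle. The labels give 3 wild-type (WT) and 3 AUF1-null (KO) samples, from animals bred through C57BL/6 with a 129 background. The labels do not say how the null allele was made, whether animals were pooled, or whether samples of a genotype came from separate animals. AUF1, encoded by Hnrnpd, binds AU-rich elements in mRNAs and changes how long those mRNAs last. The table gives 1 value per gene for each of 2 conditions, q1 and q2, on the FPKM scale, which corrects for transcript length and library size. Neither the labels nor the table's columns link q1 or q2 to a genotype, so each direction is that of q2 over q1. Hnrnpd itself was at 7.50 and 5.59 per the authors' deposited table and did not pass the test (Cuffdiff q = 0.999).

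Transcripts that mark other cell types were abundant in the sorted material. Of the 12 satellite cell markers 7 lay above 0 on the log2 scale and 5 below, with a median of 0.10, no call and a summed FPKM of 400 (q1) and 481 (q2). Among them Sdc4, the protein used for the sort, was at 173 and 270, the adhesion molecule Vcam1 at 90.8 and 65.1, and the transcription factor Pax7 at 1.16 and 0.85 per the authors' deposited table. The 12 endothelial markers all lay below 0 (summed FPKM 17585 and 14692), and most of that sum was Fabp4, a lipid carrier, at 14386 and 12032 per the authors' deposited table. Of 8 fibro-adipogenic markers 2 lay above 0 and 6 below (6583 and 5701). All 12 neutrophil markers lay above 0, and their summed FPKM was 1192 (q1) and 15272 (q2). Of the 11 lymphocyte markers in the table all lay above 0 (summed FPKM 19.0 and 84.0), as did all 12 genes of dividing cells (154 and 219). Of 11 macrophage and monocyte markers 8 lay above 0 and 3 below (1704 and 3283). At Cuffdiff's q below 0.05, 10 neutrophil, 2 macrophage and monocyte, 1 lymphocyte and 1 dividing-cell gene were called higher in q2. Called lower was 1 endothelial marker, and no fibro-adipogenic marker was called. A lower value in such bulk RNA can mean fewer cells of a type, less RNA per cell or more RNA from other cells. These cannot be told apart here.

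p53 is a transcription factor that is held low by Mdm2, a ubiquitin ligase that marks it for degradation and is itself a p53 target. DNA damage stabilises p53, which then turns on genes of growth arrest such as Cdkn1a, of repair, and of cell death such as Bax. The level of Trp53 mRNA is therefore a poor guide to p53 activity, which acts mainly through the stability of the protein. The Gadd45 genes encode small stress-response proteins that bind Pcna, Cdk1 and the kinase Map3k4. AUF1 has been described to bind Gadd45a mRNA and promote its decay, and to activate the Tert promoter.

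Matches to a promoter motif of p53 and to an mRNA motif of AUF1 are shown for these genes. The promoter motif is the p53 half-site consensus, which is 3 purines, C, 2 bases that are each A or T, G and 3 pyrimidines, and reads the same on both strands. RefSeq promoter windows (GRCm38.p6, 250 bases before to 50 after the start) were given for 9 of the 10 genes, and 5 of the 9 held a match. Among all 32851 windows given, 2745 or 8.36% held one. Windows of Bcl2, Gadd45b, Gadd45g and Tert held no such letters. Capitals mark the half-site, and each sequence runs 5′ to 3′ on the strand of its gene.
Trp53, chr11:69580274-69580303, plus strand: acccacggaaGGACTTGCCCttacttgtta
Mdm2, chr10:117710925-117710954, minus strand: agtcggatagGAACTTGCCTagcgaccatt
Ccng1, chr11:40755452-40755481, minus strand: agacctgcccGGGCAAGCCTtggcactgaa
Gadd45a, chr6:67037428-67037457, minus strand: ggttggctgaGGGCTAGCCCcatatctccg
Bax, chr7:45467080-45467109, minus strand: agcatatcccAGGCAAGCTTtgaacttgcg
The matches begin at base -75 from the start in Trp53, -186 in Mdm2, -185 in Ccng1, -40 in Gadd45a and -201 in Bax. A match is a description of letters and not evidence of binding. The search was for single half-sites in these windows only, so p53 sites elsewhere in a gene were not covered.

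The mRNA motif is the AU-rich element. In the longest GENCODE vM21 3′ UTR of each gene, the core pentamer ATTTA was present in 5 of 10 genes, with 15 copies in Bcl2, 8 in Mdm2, 8 in Ccng1, 2 in Gadd45a and 1 in Trp53. Gadd45b, Gadd45g, Bax, Tert and Lmnb1 had none. Among 13070 tested genes with an annotated 3′ UTR, 69.3% held the pentamer. The longer nonamer TTATTTATT, which contains the pentamer, was found in 2 of the 10, Bcl2 and Mdm2, and in 7.98% of those tested genes. UTR length differed widely, from 224 bases in Bax to 5086 in Bcl2, with a median of 1136 over tested genes. The nonamer sites and the pentamer sites of Gadd45a, the member described as an AUF1 target, are given in GRCm38 on the minus strand, with the motif in capitals.
Bcl2, chr1:106542995-106543023: aaaaaaagatTTATTTATTtaagacagtt
Bcl2, chr1:106539916-106539944: aggcatattcTTATTTATTacatctaaga
Mdm2, chr10:117688915-117688943: ggcattgatgTTATTTATTtgcaaataaa
Gadd45a, chr6:67035384-67035408: aaaactgctaATTTAggatggccag
Gadd45a, chr6:67035139-67035163: gtgaaaggttATTTAtgataaagtt

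None of the 9 tested genes passed the authors' test between q1 and q2. Across all genes, 91 of 14858 tested genes, or 0.612%, were called at Cuffdiff's q below 0.05, with 0.498% called higher and 0.114% lower in q2, so a count of 0 among 9 is near the background. At Cuffdiff's unadjusted p below 0.05, only Lmnb1 passed, where the background was 5.99% of tested genes (3.72% higher and 2.27% lower). Of the 9, 6 lay above 0 and 3 below, with a median log2 fold change of 0.35 beside -0.01 over all tested genes above 0 on both sides. Among all 14858 tested genes, 7229 had a log2 fold change above 0 and 7629 below. The values are pooled over samples, so no spread stands beside them, and the order of neighbouring levels has no error estimate. That order was the same in both conditions, from Gadd45g at the top to Tert at the bottom.

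**Figure D1:**
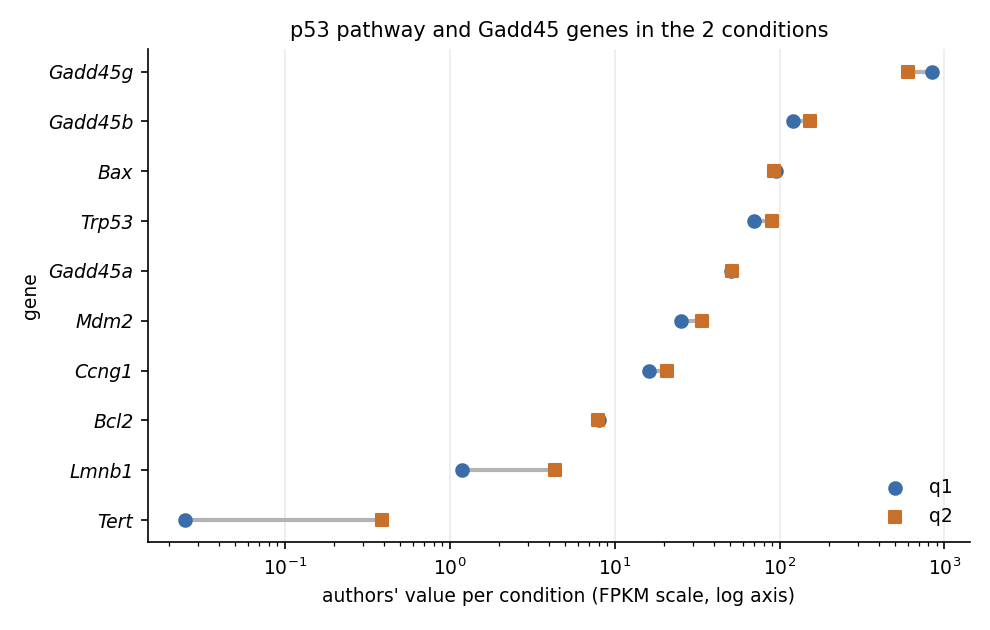
Values of the 10 genes in q1 (blue circles) and q2 (orange squares) on the FPKM scale, log axis, 1 pooled value per condition and no error bars. The levels span from 0.025 for Tert in q1 to 845 for Gadd45g in q1, and Tert and Lmnb1, the lowest of the 10, are the farthest apart between conditions.

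Trp53 mRNA was readily detected and differed little between conditions. Trp53, at chr11:69580359-69591873 (GRCm38, as are all positions), was at 69.6 (q1) and 90.6 (q2) per the authors' deposited table. It was 1.30-fold higher in q2, with a log2 fold change of 0.38, and did not pass (the authors' Cuffdiff p = 0.279, q = 0.999). An absolute log2 fold change at least this large was seen in 41.3% of tested genes. Its relatives Trp63 and Trp73 were not tested, with Trp63 at 0.31 and 0.16 and Trp73 at 0 and 0.06 per the authors' deposited table.

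Mdm2 and Ccng1, a pair of p53 targets that feed back on p53, lay on the same side of 0 as Trp53 without passing. Mdm2 (chr10:117688905-117710716) was at 25.4 (q1) and 33.9 (q2) per the authors' deposited table, a log2 fold change of 0.41 (Cuffdiff p = 0.223, q = 0.999). Ccng1 (chr11:40748552-40755286), a cyclin that recruits a phosphatase to Mdm2, was at 16.2 and 20.6 by the authors' values, a log2 fold change of 0.35 (Cuffdiff p = 0.324, q = 0.999). The ratio of Mdm2 to Trp53 was 0.365 (q1) and 0.374 (q2), so both genes kept nearly the same proportion. Trp53, Mdm2 and Ccng1 each hold a half-site in the promoter window printed above, and so do Gadd45a and Bax, whose values were the closest to equal along with those of Bcl2.

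The 3 Gadd45 genes differed far more from one another than any of them did between conditions. Gadd45g (chr13:51846675-51848474) was at 845 (q1) and 602 (q2) per the authors' deposited table, higher than 99.1% of tested genes by its mean. It was 1.40-fold lower in q2, a log2 fold change of -0.49, and did not pass (the authors' Cuffdiff p = 0.224, q = 0.999). Gadd45b (chr10:80930091-80932204), an early stress and NF-kB response gene, was at 121 and 153.9 per the authors' deposited table, on the other side of 0 with a log2 fold change of 0.35 (Cuffdiff p = 0.313, q = 0.999).

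Gadd45a, the family member under direct p53 control, was at 50.5 (q1) and 51.3 (q2) per the authors' deposited table, a log2 fold change of 0.02 (Cuffdiff p = 0.956, q = 0.999). Of all tested genes, 96.0% had an absolute log2 fold change at least as large. The table lists Gadd45a at chr6:67035096-67080652, a span shared with the noncoding gene E230016M11Rik, which lies on the opposite strand and overlaps Gadd45a by 859 bases. That gene was at 1.54 and 1.62 per the authors' deposited table; as the strand setting is unknown here, reads from the overlap cannot be told apart. Summed over the 3 genes, Gadd45 FPKM was 1017 (q1) and 807 (q2). Gadd45g made up 83.1% of that sum in q1 and 74.6% in q2, Gadd45b 11.9% and 19.1%, and Gadd45a 4.97% and 6.36%. No test of these shares was possible without values per sample.

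Bax, which permeabilises mitochondria in cell death, and Bcl2, which prevents this, were nearly equal in both conditions. Bax (chr7:45461695-45466898) was at 95.8 (q1) and 92.8 (q2) per the authors' deposited table, a log2 fold change of -0.04 (Cuffdiff p = 0.902, q = 0.999). Bcl2 (chr1:106538179-106714290) was at 8.10 and 7.94 by the authors' values, a log2 fold change of -0.03 (Cuffdiff p = 0.952, q = 0.999). By the spans of GENCODE vM21, Bax overlaps the protein-coding gene Gm45808 by 915 bases on its own strand, where no strand setting could separate the reads. Bcl2 overlaps D630008O14Rik by 33103 bases on the opposite strand, and Gm37053 and a microRNA gene on its own strand by 2087 and 136 bases. The ratio of Bax to Bcl2 was 11.8 (q1) and 11.7 (q2). Bcl2 carries the most pentamers of the 10 genes, and its 3′ UTR is longer than that of 96.0% of tested genes.

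Tert, the catalytic subunit of telomerase, was close to 0 in both conditions. At chr13:73627001-73649041 it was listed at 0.025 (q1) and 0.39 (q2) per the authors' deposited table, with the status NOTEST. No p-value therefore stands behind the difference, and the fold depends on how values near 0 are treated: 15.6-fold higher in q2 from the values as deposited, 3.91-fold with 0.1 added to both sides and 1.35-fold with 1 added. The telomerase RNA Terc was listed at 0 in both conditions and not tested.

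Lmnb1 was the member with the greatest fold change among the 9 tested, but it did not pass the adjusted threshold. It encodes lamin B1 of the nuclear lamina, which is known to decline in senescent cells. At chr18:56707813-56753424 it was at 1.18 (q1) and 4.38 (q2) per the authors' deposited table, 3.71-fold higher in q2 with a log2 fold change of 1.89 (Cuffdiff p = 0.00215, q = 0.202). With 1 added to both sides the ratio was 2.47-fold, since the level in q1 was low. An absolute log2 fold change of this size or more was seen in 3.87% of tested genes.

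**Figure D2:**
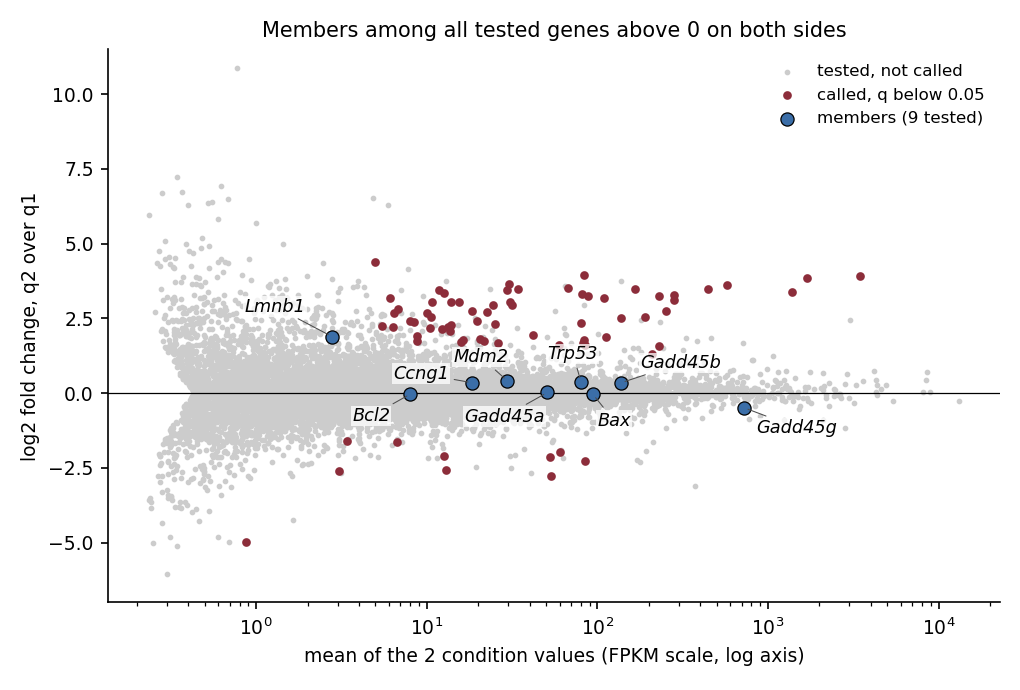
Log2 fold change of q2 over q1 against the mean of both condition values (FPKM scale, log axis) for the 14779 tested genes above 0 on both sides. Grey points did not pass, red points were called at q below 0.05, and the 9 tested members are named in blue; 8 of them lie within 0.49 of 0 and Lmnb1 lies at 1.89.

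Apart from Lmnb1 and Tert, the fold differences of the members were smaller than those of every called gene above 0 on both sides. Among those genes the smallest called rise was 2.50-fold (Plaur) and the smallest called fall 3.07-fold (Ret), by the authors' deposited table. Even at an unadjusted p below 0.05, the smallest difference of a gene with a mean of at least 10 FPKM was 1.58-fold (Jag1), above the 1.40-fold of Gadd45g. A p above the threshold therefore does not show that Trp53, Mdm2 or the other members were equal in both conditions.

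No gene of the wider p53 network was called at Cuffdiff's q. Over 8 lists with 138 genes, 132 were tested, and 74 lay above and 58 below 0, with a median log2 fold change of 0.06. At Cuffdiff's unadjusted p below 0.05 there were 6 higher and 2 lower, or 6.06% of the 132, beside the 5.99% of all tested genes. The lists overlap, and the median of each lay between -0.03 and 0.20.

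Among regulators of p53, 9 of 19 tested genes lay above 0 and 10 below, and none passed at either threshold. Rpl11, a ribosomal protein that can restrain Mdm2, was at 622 and 802 per the authors' deposited table, while Rpl5, which acts beside it, was at 268 and 212. Npm1, a nucleolar protein that binds Mdm2, was at 288 and 333 per the authors' deposited table. Cdkn2a, the senescence locus whose Arf product blocks Mdm2, was listed at 0 in both conditions and not tested.

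Targets of p53 in growth arrest and feedback lay above 0 in 20 of 30 tested genes, with a median of 0.20, and none was called. Cdkn1a, the p21 inhibitor of cyclin-dependent kinases, was at 238 (q1) and 315 (q2) per the authors' deposited table (Cuffdiff q = 0.999). The abundant targets Btg2, an antiproliferative gene, and Sertad1 were at 1148 and 1273 and at 242 and 377 per the authors' deposited table, and Plk2, a stress kinase, lay on the other side at 313 and 256. Only Eda2r, Sfn and Ddit4 passed the unadjusted p, and none the adjusted one. Eda2r, a death-domain receptor, was at 2.40 and 6.40 per the authors' deposited table (Cuffdiff p = 0.00625, q = 0.357). Sfn, the 14-3-3 sigma protein of epithelia, was at 3.87 and 10.5 by the authors' values (p = 0.0127, q = 0.504 by Cuffdiff), and Ddit4, an inhibitor of mTORC1, at 4.94 and 9.84 (p = 0.0319, q = 0.730 by Cuffdiff).

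Death and repair targets were closer to balance. Of 17 tested death targets 10 lay above 0 (median 0.08), and of 10 repair targets 6 did (median 0.03), with none at an unadjusted p below 0.05. The death receptor Fas was at 101 and 110.3 and Shisa5 at 218 and 251 per the authors' deposited table. Pcna, the sliding clamp of replication, was at 125 and 141 per the authors' deposited table.

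In the Bcl2 family, 10 of 18 tested genes lay above 0, with a median of 0.11 and none called. The abundant survival genes Mcl1 and Bcl2l1 were at 121 and 134 and at 115 and 143 per the authors' deposited table, both far above Bcl2. Bik, which promotes cell death, was the one member at an unadjusted p below 0.05, at 21.5 (q1) and 10.5 (q2) per the authors' deposited table (Cuffdiff p = 0.0353, q = 0.748).

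**Figure D3:**
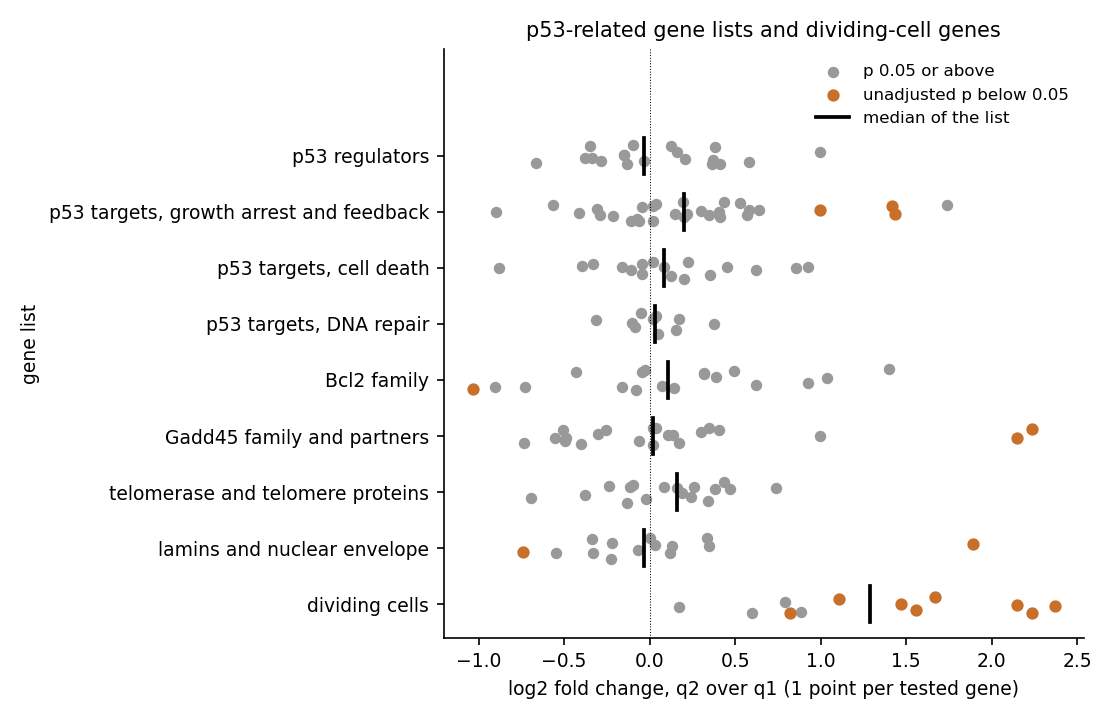
Log2 fold change of q2 over q1 for each tested gene of 8 p53-related lists and of the dividing-cell list, with the list median as a black bar and genes at an unadjusted Cuffdiff p below 0.05 in orange. Medians of the p53-related lists lie between -0.03 and 0.20, and that of the dividing-cell genes lies at 1.29.

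Partners of the Gadd45 proteins lay on both sides of 0, apart from the mitotic kinase and its cyclin. Of 21 tested genes, family included, 12 lay above 0 with a median of 0.02. Cdk1, the kinase that Gadd45 proteins can inhibit, was at 1.21 (q1) and 5.37 (q2) per the authors' deposited table (Cuffdiff p = 0.0005, q = 0.0721), and Ccnb1, its cyclin, at 1.44 and 6.78 (p = 0.0073, q = 0.383 by Cuffdiff). Both are also on the list of dividing-cell genes.

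Telomere and telomerase genes other than Tert showed no call, with 10 of 17 tested genes above 0 and a median of 0.16. Nop10 and Nhp2, proteins of the telomerase RNA particle, were at 89.5 and 113 and at 37.4 and 28.8 per the authors' deposited table. The shelterin gene Acd was at 34.5 and 39.4 per the authors' deposited table.

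Lmnb1 had the highest log2 fold change of the 14 tested nuclear envelope genes, of which 7 lay above 0, with a list median of -0.03. Lmna, which encodes lamins A and C, was at 260 (q1) and 266 (q2) per the authors' deposited table, so that the ratio of Lmna to Lmnb1 was 220 (q1) and 60.6 (q2). The lamin B receptor gene Lbr was at 92.0 and 115.9, and Banf1, a chromatin-bridging protein, at 145 and 138 per the authors' deposited table. Lmnb2, the other B-type lamin and named after its values were seen, was at 1.79 and 1.94 per the authors' deposited table. Syne2, a linker between nucleus and cytoskeleton, was at 18.0 and 10.8 per the authors' deposited table (Cuffdiff p = 0.0469, q = 0.811).

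All genes of the dividing-cell, neutrophil and lymphocyte lists lay on the same side of 0 as Lmnb1, and those of the macrophage and monocyte list on both sides. Of the 12 dividing-cell genes 8 had an unadjusted Cuffdiff p below 0.05, their median log2 fold change was 1.29, and Ccnb2, a mitotic cyclin, was called (2.72 and 14.1 per the authors' deposited table, q = 0.0201). The medians were 3.32 for 12 neutrophil and 2.09 for 11 lymphocyte markers, with none of either list at 0 FPKM, and S100a8 of neutrophils was at 426 and 6478 per the authors' deposited table. With 1 added to both sides the median was 3.30 for neutrophil, 1.12 for lymphocyte and 0.85 for dividing-cell genes, as many values of the last lists were low. For the 11 macrophage and monocyte markers the median was 0.47, from -0.75 (Csf1r) to 1.77 (Ccr2), with 2 called higher, Ccr2 and Tyrobp, and none lower. The abundant Lyz2 and C1qb of that list were at 633 and 1504 and at 319 and 468 per the authors' deposited table and did not pass. The part of these cell types in the values of Lmnb1, Cdk1, Ccnb1, Eda2r, Sfn, Ddit4 and Tert was not tested.

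**Figure D4:**
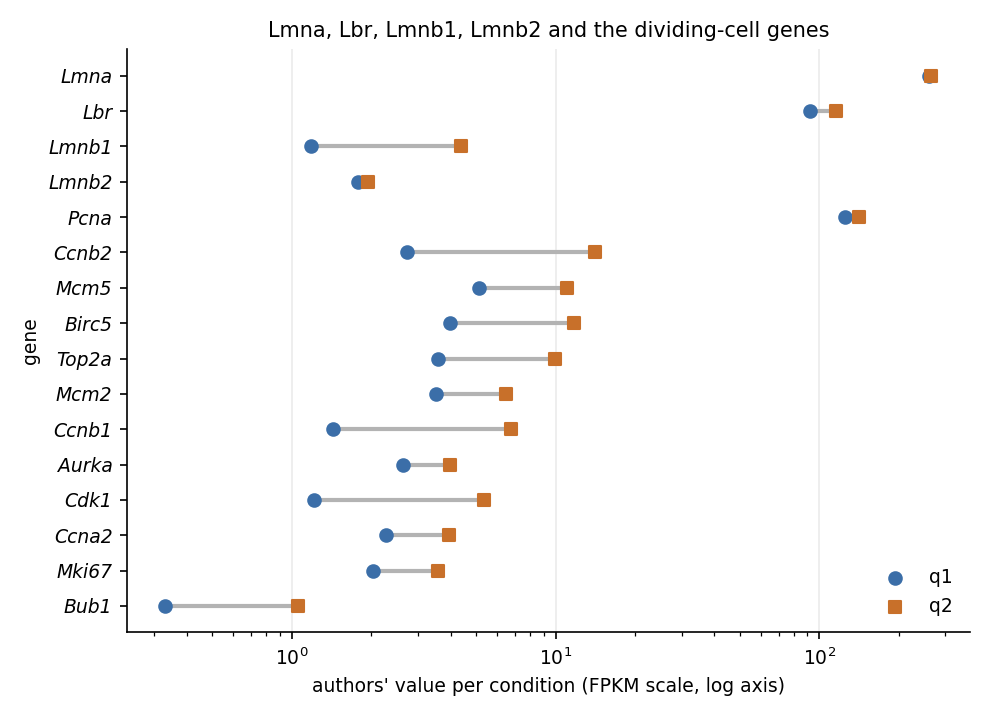
Values in q1 (blue circles) and q2 (orange squares) on the FPKM scale, log axis, for Lmna, Lbr, Lmnb1 and Lmnb2 and for the 12 dividing-cell genes, 1 pooled value per condition. Lmna lies at 260 and 266 while Lmnb1 goes from 1.18 to 4.38, and all 12 dividing-cell genes have the square to the right of the circle.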

How the data were processed

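Per the submitters' processing notes, reads were handled with TopHat2 2.0.9 and Cufflinks 2.2.1; the annotation, normalization and strand option were not given in the sources used here. As build they name mm9, but the positions match GRCm38 and are given 1-based in that build. Per the file headers, the authors deposited a pooled value per condition (FPKM scale, a unit read from the column layout), its log2 fold change, a test statistic (a score, not used), and Cuffdiff's p-value and q-value. Depth and values per sample are unknown, so no interval, SD or test between samples was possible, and the p-values reflect samples whose independence is not stated. A gene was called at status OK and q below 0.05; 14858 genes had that status, and the Benjamini-Hochberg adjustment recomputed over them differed from the deposited q by at most 5.12e-07.

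Members and lists were chosen with earlier results of these data known. All members were named, with, from each pathway list, genes at an unadjusted p below 0.05 and the 3 with the highest mean; from each marker list the 2 with the highest mean, and Pax7; 1 gene so named is not reported here. Others (Trp63, Trp73, Cdkn2a, Terc, Lmnb2, E230016M11Rik and the other overlapping genes, Csf1r, Ccr2, Tyrobp, Plaur, Ret, Jag1) were named after their values were seen. For 4 genes an older symbol was matched through RefSeq. Motifs were searched in RefSeq promoter windows and in 3′ UTRs of GENCODE vM21 after the stop codon; 88.0% of tested genes had such a UTR by symbol. Adjustment and motif search were tested on simulated data. Python 3.11.15 and pandas 2.3.3 were used.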

Additional observations from a re-analysis of the deposited data

How the results depend on the processing

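The count of members called was 0 at a q below 0.05, 0.1 and 0.01 and among genes reaching 1 FPKM in either condition (13417 genes, Lmnb1 q = 0.198 by the Cuffdiff p adjusted again); at the unadjusted Cuffdiff p below 0.05 it was 1, Lmnb1. Over the pathway lists it was 0 at q below 0.05 and under that filter, and 8 at the unadjusted p. Alternatives chosen after seeing the data gave 1 (Cdk1) at q below 0.1, 0 at q below 0.01, and 6 at the unadjusted p without the dividing-cell genes. The smallest Cuffdiff q of any gene was 0.0108, so a q below 0.01 could call no gene, among members or lists. The median log2 fold change of the tested members was 0.35 as deposited, 0.35 and 0.33 with pseudocounts of 0.1 and 1, and 0.36 centred on the median of tested genes; for the pathway lists it was 0.06, 0.05 with a pseudocount of 1 and 0.08 centred. For 36 single genes, all 108 alternatives kept the direction, but this could hardly have come out otherwise. A pseudocount added to both sides cannot change a direction, and the median subtracted in centring was only -0.01. No paired analysis was possible because the table holds 1 pooled value per condition, and for the same reason no sample could be left out. Without counts, the depth behind low values such as those of Tert and Lmnb1 is unknown.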
